A study of Rattus rattus with 8 samples.

Results

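The genes described here are 10 genes of cholinergic signalling in the rat, chosen by the RefSeq accession that the array gives its probes, with the gene symbol that goes with each accession. They are 10 of the 26997 different sequence names on the array, and each of the 10 was measured by 1 probe printed as 2 spots. By role they are the enzymes Ache (NM_172009) and Bche (NM_022942), the vesicular transporter Slc18a3 (NM_031663), the muscarinic receptors Chrm3 (NM_012527) and Chrm4 (NM_031547), and the nicotinic receptor subunits Chrna1 (NM_024485), Chrna3 (NM_052805), Chrna7 (NM_012832), Chrna9 (NM_022930) and Chrnb1 (NM_012528).

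Whisker follicles of male adult Sprague-Dawley rats were taken after a single simulated shock wave delivered to the head in a shock tube, or from sham control rats, with isoflurane anaesthesia in both groups. Several follicles of a rat were pooled, and each rat gave 1 single-colour array. The sham control rats were C1, C2 and C3, and the blast rats were M2 and M3 (145 kPa), H1 (175 kPa) and XH1 and XH3 (200 kPa). The study observed rats for a shorter or a longer period before sampling, and which rat had which period was not known.

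Acetylcholine is loaded into vesicles by a transporter, released, and broken down outside the cell by cholinesterases. It acts on muscarinic receptors, which signal through G proteins, and on nicotinic receptors, which are ion channels built from several subunits. Both kinds of receptor are known in skin, where keratinocytes as well as nerve endings carry them, and the muscle form of the nicotinic receptor sits at the junction of nerve and skeletal muscle.

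All values are log2 intensities after quantile normalization of the 8 arrays, so a difference of 1 on this scale is a 2-fold difference in intensity. Levels of different probes are not comparable, and each gene is compared only with itself across rats. A pooled follicle sample holds many cell types, so fewer cells of a type and less RNA per cell cannot be told apart. Of the 10 genes, 6 were well above background by the scanner software on all 8 arrays, 1 (Chrm4) on 7 arrays and 3 (Ache, Bche and Chrna3) on 0 arrays. Over the whole array, 55.4% of the 30367 probes were well above background on all 8 arrays and 27.3% on 0 arrays.

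Between blast and sham control, none of the 10 genes passed an adjusted p of 0.05 in limma, and neither did any other of the 30366 probes tested (0%). At an unadjusted p under 0.05, 1 of the 10 genes was called, Slc18a3, against 2.80% of all probes tested. From these same arrays the study had proposed that Slc18a3 and Chrm3, among other genes, were up-regulated after blast. The 10 genes were chosen with earlier results of these data known, so this count is not independent of that report. The groups were fully separate for 0 of the 10 genes, against 2.0% of the probes measured on each array. Of the 7 genes with a level, 6 had a higher mean in blast rats and 1 (Chrnb1) a lower mean, and a higher mean in blast rats was found for 48.4% of the probes well above background on all arrays and 51.0% of all probes tested. That split was 3 higher and 4 lower with array quality weights or a block for the slide side, 5 and 2 with a block for the slide row, and it ranged from 2 and 5 (without C1) to 7 and 0 (without C2) with each rat left out; it was 6 and 1 after scaling to the 75th percentile, with normexp and in the deposited log2 values.

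The enzymes that break down acetylcholine gave no level. Ache, the acetylcholinesterase of nerve and muscle junctions, was not well above background in any of the 3 sham control rats or 5 blast rats, and its spots read between 3.43 and 25.4 in processed signal. Bche, the broader butyrylcholinesterase found in plasma and many tissues, was likewise not well above background in any rat, with spots between 3.64 and 21.0. For both genes no fold is given, since neither group had a measured level. The normalized value of Ache lay between 2.26 and 3.68 and that of Bche between 2.27 and 3.96. The set thus held measured receptors and a measured transporter in these follicles, but no measured enzyme.

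Slc18a3, the vesicular transporter that fills synaptic vesicles with acetylcholine, was measured on all 8 arrays. Its log2 intensity was 6.79 in C1, 7.22 in C2 and 7.17 in C3. In the blast rats it was 7.22 in M2, 7.90 in M3, 7.46 in H1, 7.46 in XH1 and 7.48 in XH3. C1 was the lowest rat and M3 the highest, and 4 of the 5 blast rats exceeded each of the 3 sham control rats, while M2 was level with C2. The array of C1 stood apart in its median signal, 280.5 against 90.9 to 179.9 on the others, and before normalization its Slc18a3 spots were the brightest of the 8 arrays (222 and 207). C1 was lowest only after normalization, and the part of its array in that value was not tested. Sham control rats averaged 7.06 ± 0.24 (SD, n = 3) and blast rats 7.51 ± 0.24 (SD, n = 5), a difference of 0.44 (SE 0.18, 95% confidence interval 0.020 to 0.86). This is 1.36-fold, with an interval from 1.01-fold to 1.82-fold. The two-sided exact permutation p over the 56 ways to part the rats was 0.0357 with n = 3 and n = 5, where the smallest p possible is 0.0179, and limma's adjusted p was 1.0.

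The difference in Slc18a3 had the same sign in each part of the slide. All arrays shared 1 slide with 2 rows and 4 columns, and the difference was 0.34 within the row of C1, C2, M2 and H1 and 0.44 within the row of C3, XH1, XH3 and M3. Within columns 1 and 2 it was 0.36, and within columns 3 and 4 it was 0.39. The row of C3 and columns 3 and 4 each held only 1 sham control rat, and both splits use the same 8 rats. With a block in the limma fit the unadjusted p was no longer under 0.05, for the slide row (difference 0.38), the side (0.37) or the number in the sample titles (0.43). It changed when single rats were left out: without C1 it was 0.31, where the exact permutation p was 0.238, and 0.34 without M3, where it was 0.0857. That p was under 0.05 only without C2 (0.0476) or without M2 (0.0286), and it was between 0.0857 and 0.238 without each of the other 6 rats. With all 8 rats the difference was 0.43 after scaling to the 75th percentile (exact permutation p = 0.0893), 0.31 with the normexp background correction (exact permutation p = 0.107) and 0.45 in the deposited log2 values (exact permutation p = 0.0714). It was 0.44 with outlier spots kept (exact permutation p = 0.0179), and 0.44 with a limit of 8 or with quantile normalization of log2 values (exact permutation p = 0.0357 for both). The spots of a probe agreed closely for this gene, with a median difference of 0.056 between them on an array. Its spread between rats of a group (SD 0.24) was small, and 84.1% of the probes well above background on all arrays had a larger spread.

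**Figure D1:**
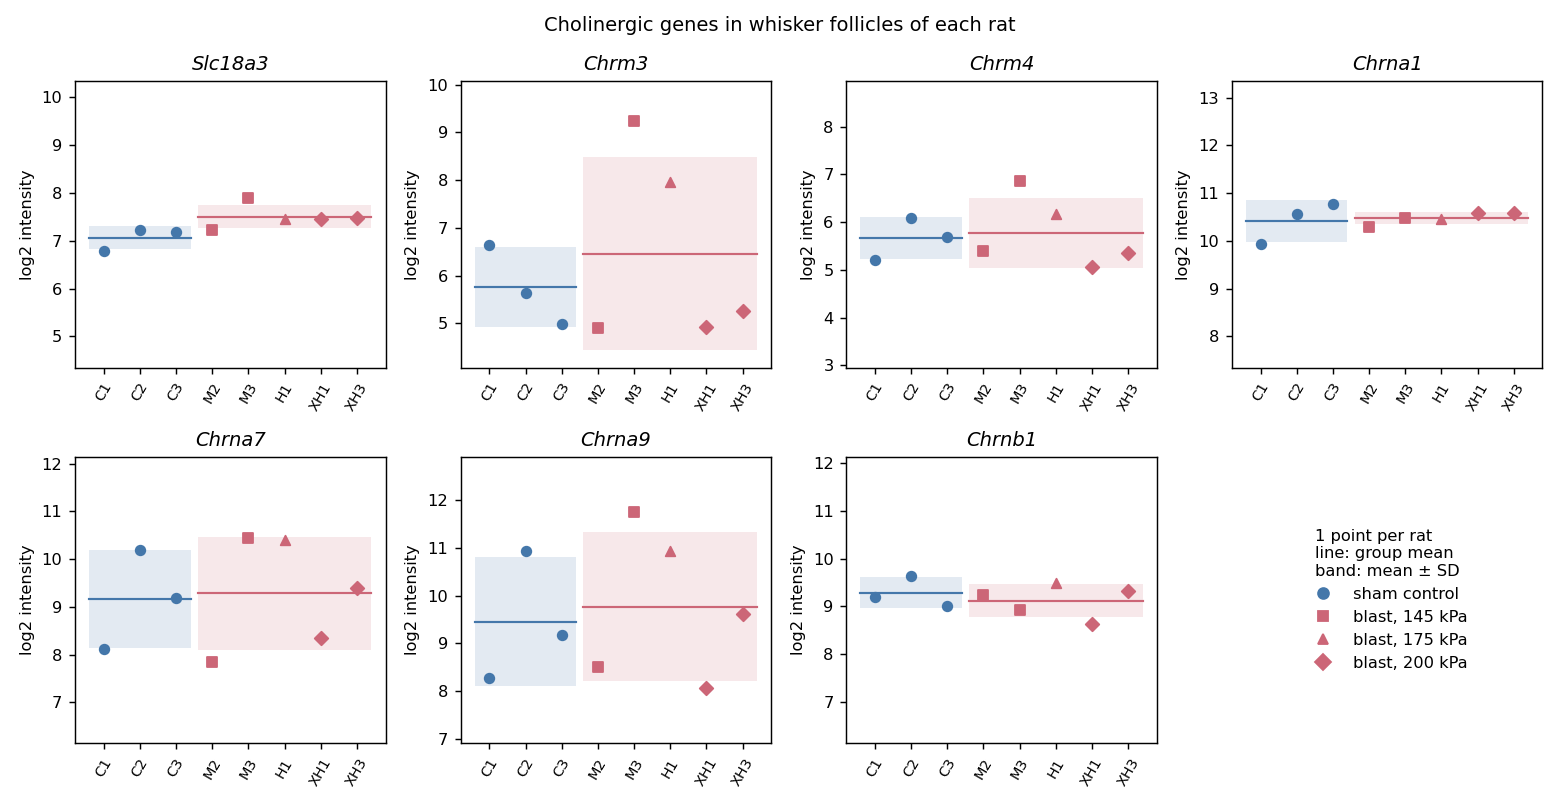
Log2 intensity (vertical axis, log scale, same span in each panel) of the 7 cholinergic genes with a level, with 1 point per rat (3 sham control rats, 5 blast rats), lines at the group means and bands of mean ± SD. The groups overlap for every gene, and the blast rats spread most for Chrm3, from 4.91 in M2 to 9.24 in M3.

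Chrm3, a muscarinic receptor that signals through calcium and drives gland secretion and smooth muscle, differed most between rats. Its log2 intensity was 6.64 in C1, 5.64 in C2 and 4.99 in C3. Among blast rats it was 4.91 in M2, 9.24 in M3, 7.97 in H1, 4.93 in XH1 and 5.27 in XH3. M3 and H1 stood above all other rats, while M2 and XH1 lay below all sham control rats, so the blast group held both the highest and the lowest values. Sham control rats averaged 5.76 ± 0.83 (SD, n = 3) and blast rats 6.46 ± 2.01 (SD, n = 5). The SD between rats of a group was 1.71. The difference of 0.71 (SE 1.13, 95% confidence interval -1.93 to 3.34) was smaller than that SD, and the exact permutation p of the difference was 0.571. It ranged from 0.011 without M3 to 1.15 without C1, and was 0.29 with array quality weights and 0.28 with a block for the slide side.

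For Chrm3, M2 and M3, both exposed at 145 kPa, differed by 4.33, which is 20.1-fold, or by 2.57 with the normexp background correction. H1 at 175 kPa was high (7.97), and both rats at 200 kPa were low (4.93 and 5.27). The level in M2 (4.91) was dim: the lowest value well above background on its array was 4.145. The fold thus rests on a level near background. Of the probes well above background on all arrays, 0.291% differed more between M2 and M3, and 0.760% had a larger spread within groups. In M3, 1 of the 2 Chrm3 spots was marked as an outlier and left out; the kept spot read 411 and the other one 757 in processed signal, against 36.8 and 35.3 in M2. The spots of the gene read 189 and 332 in H1 and 185 and 203 in C1. These signals are before normalization, on arrays whose median signal was 93.3 (M3), 179.9 (M2), 142.1 (H1) and 280.5 (C1). With the marked spot kept, M3 exceeded M2 by 4.73.

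Chrm4, a muscarinic receptor that inhibits adenylyl cyclase, was dim, and in XH1 only 1 of its 2 spots was well above background. Its log2 intensity was 5.21 in C1, 6.09 in C2 and 5.69 in C3. The blast rats had 5.39 (M2), 6.85 (M3), 6.17 (H1), 5.06 (XH1) and 5.36 (XH3). M3 was again the highest rat and XH1 the lowest, and the groups overlapped. The means were 5.67 ± 0.44 (SD, n = 3) and 5.77 ± 0.73 (SD, n = 5), a difference of 0.099 (95% confidence interval -0.92 to 1.12; exact permutation p = 0.839). The median difference between its spots on an array was 0.36, so single values of this gene are less precise than those of the brighter genes.

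Chrna1 and Chrnb1 are subunits of the nicotinic receptor of skeletal muscle. For Chrna1 the log2 intensity was 9.93 in C1, 10.57 in C2 and 10.77 in C3, and in the blast rats it was 10.30 in M2, 10.49 in M3, 10.45 in H1, 10.58 in XH1 and 10.58 in XH3. Each of the 5 blast rats lay between the lowest (C1) and the highest sham control rat. Before normalization the Chrna1 spots of C1 were the brightest of the 8 arrays (1872 and 1969). C1 was lowest only after normalization, and the part of its array in that value was not tested. The means were 10.42 ± 0.44 (SD, n = 3) and 10.48 ± 0.12 (SD, n = 5), and the difference was 0.058 (95% confidence interval -0.40 to 0.52; exact permutation p = 0.804). On the fold scale the interval ran from 0.756-fold to 1.43-fold. The difference was -0.19 without C1, -0.13 with array quality weights and -0.021 with a block for the slide row.

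Chrnb1 had a log2 intensity of 9.20 in C1, 9.65 in C2 and 9.01 in C3. It was 9.25 in M2, 8.92 in M3, 9.50 in H1, 8.62 in XH1 and 9.32 in XH3. XH1 and M3 lay below all sham control rats, and the other 3 blast rats lay among them. The means were 9.29 ± 0.33 (SD, n = 3) and 9.12 ± 0.35 (SD, n = 5), a difference of -0.16 (95% confidence interval -0.73 to 0.40; exact permutation p = 0.536). It was 0.017 without C2 and 0.023 with array quality weights. The muscle subunits did not follow each other across the 8 rats (Pearson r = -0.141, Spearman rho = -0.286, exact permutation p = 0.740 and 0.501). Without C1 and C3, the rats farthest from the median of Chrna1, r was -0.134. Markers of skeletal muscle were not analysed here.

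Chrna3, a subunit of the receptor of autonomic ganglia, was not well above background in any rat, with spots between 3.27 and 14.7 in processed signal. It has no fold for that reason. In the gene table of the related species Rattus rattus (assembly Rrattus_CSIRO_v1), Chrna3 lies between Chrna5 and Chrnb4, and Slc18a3 lies beside Chat, the gene of the enzyme that makes acetylcholine. These neighbours could not be paired with accessions of the array and were not analysed here.

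Chrna7 forms receptors of a single kind of subunit with high calcium entry. Its log2 intensity was 8.12 in C1, 10.18 in C2 and 9.19 in C3. In the blast rats it was 7.84 in M2, 10.45 in M3, 10.39 in H1, 8.34 in XH1 and 9.39 in XH3. M3, H1 and C2 were high, M2, C1 and XH1 were low, and the groups overlapped over nearly their whole range. The means were 9.16 ± 1.03 (SD, n = 3) and 9.28 ± 1.18 (SD, n = 5), a difference of 0.12 (95% confidence interval -1.63 to 1.87; exact permutation p = 0.839).

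Chrna9, a subunit known from hair cells of the inner ear and also from keratinocytes, had a log2 intensity of 8.26 in C1, 10.93 in C2 and 9.17 in C3. Among blast rats it was 8.50 in M2, 11.74 in M3, 10.93 in H1, 8.07 in XH1 and 9.61 in XH3. The same rats as for Chrna7 were high and low. The means were 9.45 ± 1.36 (SD, n = 3) and 9.77 ± 1.56 (SD, n = 5), a difference of 0.32 (95% confidence interval -1.99 to 2.62; exact permutation p = 0.750). Between the lowest and the highest rat, Chrna9 differed 12.7-fold and Chrna7 6.12-fold, and M3 exceeded M2 by 3.24 for Chrna9 and by 2.61 for Chrna7. Only 1.57% of the probes well above background on all arrays had a larger spread within groups than Chrna9, and 4.23% a larger one than Chrna7.

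The arrays on the sides of the slide did not overlap for Chrna7 or Chrna9, as for many other probes. For Chrna7 the 4 arrays in columns 1 and 2 (M2, C1, C3 and XH1) lay between 7.84 and 9.19, and the 4 arrays in columns 3 and 4 (C2, H1, XH3 and M3) between 9.39 and 10.45. For Chrna9 the ranges were 8.07 to 9.17 and 9.61 to 11.74. These were the 2 genes of the 10 whose sides did not overlap, against 12.6% of all probes measured on each array. With the group in the limma fit, the sides differed by 1.82 (SE 0.36) for Chrna7 and by 2.38 (SE 0.49) for Chrna9, both with an adjusted p of 0.201. At an unadjusted p under 0.05, these 2 of the 10 genes differed between sides, which is near the share of all probes tested, 19.5%, and 0 probes (0%) passed the adjusted threshold.

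Chrm3 and Chrm4 were also higher in columns 3 and 4 on average, by 1.59 (SE 1.03) and 0.81 (SE 0.34), but their sides overlapped. The other 3 genes with a level were higher there as well, Chrnb1 by 0.39 (SE 0.20), Slc18a3 by 0.26 (SE 0.16) and Chrna1 by 0.12 (SE 0.20). The sign was thus the same for all 7, but the share of all probes with that sign was not determined. Hbb, a marker of red blood cells described below, also had a higher mean in columns 3 and 4. Its means were 14.3 there against 13.1 on the brighter probe, and 9.63 against 7.89 on the dimmer one. Each side held rats of both groups, with 2 sham control and 2 blast rats in columns 1 and 2 and 1 sham control and 3 blast rats in columns 3 and 4. With the side as a block, blast minus sham control was -0.37 for Chrna7, -0.32 for Chrna9 and -0.12 for Chrm4, each opposite in sign to the value without it. For Chrm3, blast minus sham control was -0.90 within columns 1 and 2 and 1.85 within columns 3 and 4. The part of the side of the slide in these levels was not tested, and with 1 array per rat the array's position and the rat cannot be told apart.

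**Figure D2:**
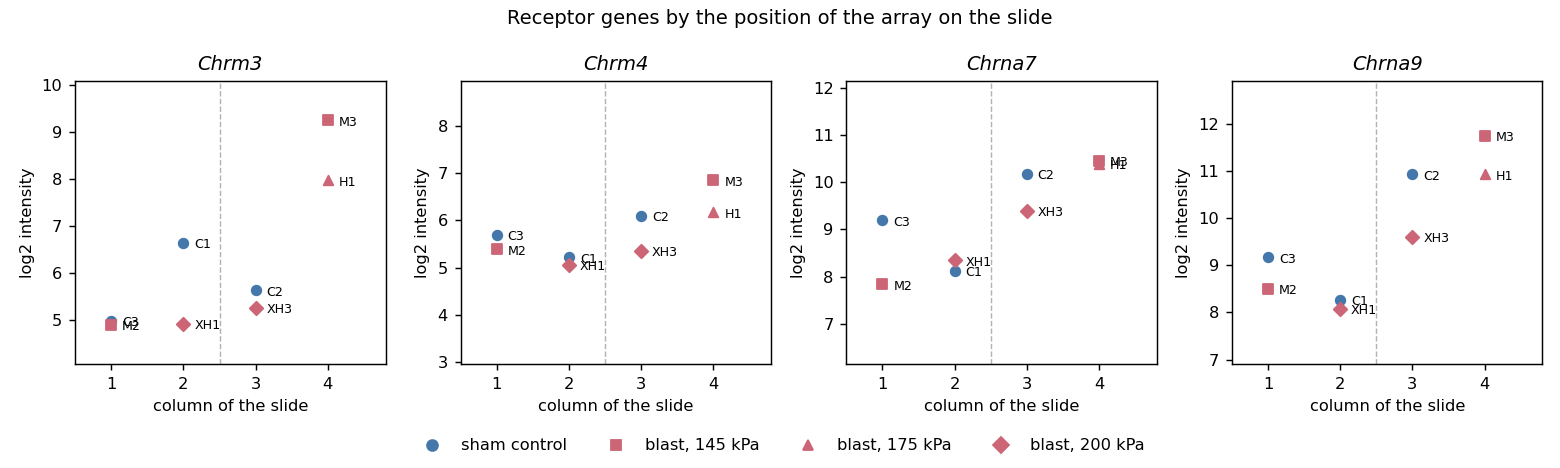
Log2 intensity (vertical axis, log scale, same span in each panel) of Chrm3, Chrm4, Chrna7 and Chrna9 in each rat against the column of the slide that held its array, with a dashed line between columns 1 and 2 and columns 3 and 4. For Chrna7 and Chrna9 all 4 arrays to the right of the line lie above all 4 to its left, and for Chrm3 the rats in column 4, M3 and H1, stand above the others.

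Correlations were computed for the 21 pairs of the 7 genes with a level, across the 8 rats, with exact permutation tests over all 40320 pairings and p adjusted over the 21 pairs. Chrna7 and Chrna9 had a Pearson r of 0.956 (exact permutation p = 0.00181, adjusted 0.0190) and a Spearman rho of 0.905 (exact permutation p = 0.00456, adjusted 0.0479). Without C1 and M2, the rats farthest from the median of Chrna7, r was 0.984. Of the 16831 other probes well above background on all arrays, 1.45% had an r with Chrna7 at least as high.

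Chrm4 followed both of these subunits. With Chrna9 its r was 0.944 (exact permutation p = 0.000868, adjusted 0.0182) and its rho 0.929 (exact permutation p = 0.00223, adjusted 0.0469), and r was 0.894 without H1 and M3. With Chrna7 its r was 0.857 (exact permutation p = 0.00637, adjusted 0.0446) and its rho 0.786 (exact permutation p = 0.0279, adjusted 0.193), and r was 0.794 without H1 and M3. Of the other probes, 1.54% had an r with Chrm4 at least as high as Chrna9, and 8.44% at least as high as Chrna7.

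Each side of the slide held only 4 rats, too few for an r within it. After the mean of each side was subtracted, r was 0.804 for Chrna7 and Chrna9, 0.986 for Chrm4 and Chrna9 and 0.729 for Chrm4 and Chrna7. After the mean of each group was subtracted instead, r was 0.958, 0.944 and 0.857. These 3 pairs were the ones with an adjusted Pearson p under 0.05, and which pairs passed depended on the rats kept. With 7 rats the number of pairs that passed, of the 21, was 0 without M3, 1 without C3, 2 without C2, M2, H1 or XH1, 3 without XH3 and 4 without C1, where Chrm4 with Chrna7 was lost and Chrm3 with Chrm4 and with Chrna9 were gained. Without M3 the r of the 3 pairs was 0.957, 0.931 and 0.867, about as large as with it. Chrm4 with Chrna7 kept an adjusted p under 0.05 in 1 of these 8 fits, that without XH3.

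Whether Chrm3 followed the other 3 genes less closely than they followed each other was not tested. For Chrm3 with Chrm4, r was 0.792, against 0.857 for Chrm4 with Chrna7. After scaling to the 75th percentile these were 0.788 and 0.886, and in the deposited values 0.809 and 0.867. The order turned with normexp (0.879 and 0.792), without C1 (0.889 and 0.837) and without C2 (0.859 and 0.851), but not without any other rat. No pair with Chrm3 passed an adjusted p of 0.05 with all 8 rats. Its r was 0.792 with Chrm4 (exact permutation p = 0.0175, adjusted 0.0918), with a rho of 0.619 (exact permutation p = 0.115, adjusted 0.302). With Chrna9 its r was 0.718 (exact permutation p = 0.0430, adjusted 0.181), with a rho of 0.714 (exact permutation p = 0.0576, adjusted 0.202). With Chrna7 its r was 0.632 (exact permutation p = 0.0889, adjusted 0.260), with a rho of 0.762 (exact permutation p = 0.0368, adjusted 0.193). Without H1 and M3, the rats with the highest Chrm3, the r was -0.0099 with Chrm4, 0.022 with Chrna9 and -0.024 with Chrna7, so the linear relations rest on those rats. Without M3 alone it was 0.519 with Chrm4 and 0.501 with Chrna9, and without C1 alone it was 0.889 and 0.838, where both pairs passed an adjusted p of 0.05. Slc18a3 had an r of 0.627 with Chrna9 and 0.600 with Chrna7 (exact permutation p = 0.0906 and 0.110, adjusted 0.260 for both), and without C1 and M3 these were 0.038 and 0.167. They were 0.78 and 0.80 after group means were subtracted, and 0.27 and 0.20 after side means were subtracted. Their rho was 0.643 and 0.738 (exact permutation p = 0.0962 and 0.0458, adjusted 0.289 and 0.193).

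**Figure D3:**
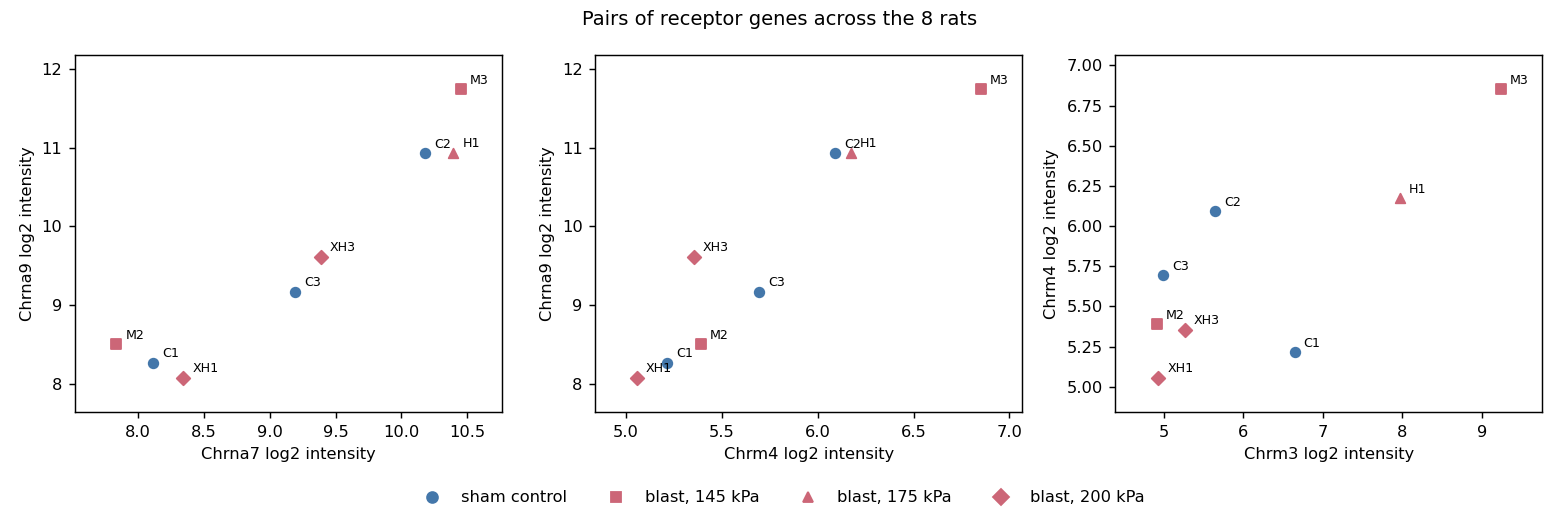
Log2 intensity of Chrna9 against Chrna7, of Chrna9 against Chrm4 and of Chrm4 against Chrm3, with 1 labelled point per rat (both axes log scale). M3, H1 and C2 lie at the upper right in the first and second panels (r = 0.956 and 0.944), while in the third panel M3 and H1 stand apart from the other rats along the Chrm3 axis.

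Within the blast rats, the pressure was set against each gene as a slope per 10 kPa. None of the 10 genes passed an adjusted p of 0.05, nor did any of the 30236 probes tested (0%), and at an unadjusted p under 0.05 it was 0 of the 10 genes against 2.84% of all probes. The slopes of the 7 genes with a level ran from -0.35 (SE 0.31) for Chrm3 and -0.22 (SE 0.25) for Chrna9 to 0.034 (SE 0.028) for Chrna1, each with an adjusted p of 1.0.

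Ordered by pressure, Chrm3 was 7.08 on average at 145 kPa, 7.97 in the rat at 175 kPa, and 4.93 and 5.27 in the rats at 200 kPa, against 5.76 on average in sham control rats. The means of Chrna9 were 10.12, 10.93 and 8.84 in the same order, against 9.45, and those of Chrna7 were 9.14, 10.39 and 8.87, against 9.16. For each of these 3 genes the rat at 175 kPa exceeded both pressure means, and M2 and M3, both at 145 kPa, lay farther apart than any pair of the values for the 3 pressures. Slc18a3 was 7.56, 7.46 and 7.47, against 7.06 in sham control rats, so its values at the 3 pressures were closer to each other than to the sham control mean. Without M2, the slopes of Chrm3 (-0.78), Chrna9 (-0.55) and Chrm4 (-0.30) passed an unadjusted p of 0.05 and none passed the adjusted threshold, and in that fit of 4 rats 4744 probes in all passed unadjusted, against 860 with M2. Without M3, the other rat at 145 kPa, the same slopes were -0.038, 0.0075 and -0.055.

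Hbb (NM_033234), the beta chain of haemoglobin and a marker of red blood cells, was the only marker of another cell type that could be paired with a probe. On the brighter of its 2 probes the log2 intensity was 10.21 in C1, 13.96 in C2 and 11.64 in C3, and in blast rats it was 17.42 in M2, 13.34 in M3, 15.37 in H1, 13.31 in XH1 and 14.43 in XH3. M2, H1 and XH3 lay above C2, the highest sham control rat, and M3 and XH1 lay below it. This is a 7.15-fold higher mean in blast rats (exact permutation p = 0.0893). On the dimmer probe the values were 4.88, 8.88 and 6.04 in C1, C2 and C3, and 12.48 in M2, 9.74 in M3, 10.32 in H1, 8.18 in XH1 and 9.58 in XH3. There 4 of the 5 blast rats exceeded C2, and the mean was 11.0-fold higher in blast rats (exact permutation p = 0.0357). Hbb thus had a higher mean in blast rats on both probes, as Slc18a3 did. The exact permutation p was under 0.05 on the dimmer probe only. Neither fold was computed with single rats left out, and no other setting was run for Hbb. C1, the rat lowest in Slc18a3, was also lowest in Hbb on both probes, whereas M2, the rat highest in Hbb, was the blast rat lowest in Slc18a3 and the lowest of all 8 rats in Chrm3 and Chrna7. The part of blood in the levels of the cholinergic genes was not tested.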

How the data were processed

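Each of 3 sham control rats and 5 blast rats gave 1 array. The authors extracted the background-corrected intensity of each spot with Feature Extraction (version 10.7.1.1 in the headers), and they also deposited log2 values, quantile normalized over the 8 arrays; each column correlated with log2 of its array's intensity at 0.9986 or above, and their medians lay between 7.02 and 7.05. Control spots and outlier spots, as the scanner software marked them, were dropped. Log2 intensities of the spots of each probe were averaged, quantile normalization was applied over the 8 arrays to these means taken back to the intensity scale, and 3.0 was the lowest intensity allowed. Per array, the median signal of non-control spots lay between 90.9 and 280.5. A probe counted as well above background on an array where every kept spot did.

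Groups were compared over all 30366 probes with limma 3.58.1 (lmFit, eBayes, Benjamini-Hochberg) in R 4.3.3, and single genes with two-sided exact permutation tests. Pressure among blast rats and the side of the slide were fitted in limma, the side with the group as covariate. The limma fits of the groups and of pressure were tested on simulated data, and the exact group test on a fixed set of values. The spot handling, the normalization, the detection counts, the blocks, the fit of the side and the correlations were not tested in this way. The number of arrays limits the precision. Every gene of the set is named. The members and lists were chosen with earlier results of these data known. The arrays give accessions and no symbols, and 0 of the accessions matched the gene table used here (Rattus rattus, Rrattus_CSIRO_v1), so 26 other cholinergic genes, the genes most alike in pattern and markers of other cells except Hbb were not analysed here.

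For blast against sham control the alternatives were scaling to the 75th percentile, a limit of 8, leaving out probes that were well above background on fewer than 3 arrays, keeping outlier spots, the methods' one-way analysis of variance, eBayes with trend and robust, array quality weights, blocks for the title number or the slide row, the deposited log2 values, the mean of a gene's probes, and each rat left out. For pressure they were all 8 rats, 200 against 145 kPa, scaling to the 75th percentile, the deposited log2 values, each blast rat left out and the side as a block, and the others were not run. Several choices were made after the data were seen. These were normexp on the median signal, the side of the slide and quantile normalization of log2 values in place of intensities. They were also the correlations, Chrm3 in M3 against M2, and the alternatives for detection (at least 1 spot, outlier spots kept, each rat left out).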

Additional observations from a re-analysis of the deposited data

How the results depend on the processing

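None of the 10 genes passed an adjusted p of 0.05 in limma in the settings run, also with each rat left out (0 to 0 genes); fewer alternatives were run for pressure than for blast against sham control. The number of genes well above background on all arrays was 6, 7 where at least 1 spot sufficed, and 6 to 7 with each rat left out. Slc18a3 was higher in blast rats in every setting (0.31 to 0.52 with each rat left out), but its unadjusted limma p was over 0.05 in 8 other settings and without 6 of the 8 rats, each rat other than C2 and M2. Whether the numbers in the sample titles pair the rats could not be decided. Deviations from the group means correlated at 0.261, -0.584 and 0.246 between a sham control rat and the blast rats of its number. With blast rats of another number the values ran from -0.552 (C1 with number 3) to 0.519 (C1 with number 2). Deviations of 3 rats from their own mean depend on each other, so these few values cannot decide it. At an unadjusted p under 0.05, the replicate block called 0 of the 10 genes, against 1 (Slc18a3) without it, and 850 probes in all, against 850.

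Differences between the groups changed sign for 6 of the 7 genes with a level, all but Slc18a3. With array quality weights, blast minus sham control was -0.24 for Chrm4, -0.13 for Chrna1, -0.21 for Chrna7, -0.016 for Chrna9 and 0.023 for Chrnb1. With a block for the slide row it was -0.021 for Chrna1, and with the side as a block -0.12 for Chrm4, -0.37 for Chrna7 and -0.32 for Chrna9. Within row 1 it was -0.034 for Chrna7 and within row 2 -0.22 for Chrna1. Within columns 1 and 2 it was -0.90 for Chrm3, -0.23 for Chrm4, -0.56 for Chrna7 and -0.43 for Chrna9, and within columns 3 and 4 -0.065 for Chrna1, -0.10 for Chrna7 and -0.17 for Chrna9. With each rat left out the ranges were 0.011 to 1.15 for Chrm3, -0.17 to 0.31 for Chrm4, -0.19 to 0.23 for Chrna1, -0.40 to 0.63 for Chrna7, -0.28 to 1.06 for Chrna9 and -0.30 to 0.017 for Chrnb1. With all 8 rats the slopes per 10 kPa were 0.023 for Slc18a3, 0.021 for Chrm3, 0.0044 for Chrna7 and 0.0060 for Chrna9. With each blast rat left out they ran from -0.073 to 0.042 for Slc18a3, -0.78 to -0.038 for Chrm3, -0.30 to -0.055 for Chrm4, -0.31 to 0.14 for Chrna7, -0.55 to 0.0075 for Chrna9 and -0.060 to 0.054 for Chrnb1. The causes were not tested.

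At an unadjusted p under 0.05, 850 probes were called, 411 with the filter on dim probes, which tests fewer, 2246 with array quality weights and 1649 without H1. For pressure it was 860, 1441 with the side as a block, 4744 without M2, 1301 without M3, 409 without XH1 and 508 without XH3. At an adjusted p under 0.05, 2 probes passed without C1 and 3 without C3. Chrm3 in M3 exceeded M2 by 4.33, and by 2.57 with normexp. The files hold no mean signal, so normexp was run on the median signal only. Each gene had 1 probe, so the mean of its probes was the same value. Dim genes are limited by signal over background.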
